A study of Mus musculus with 14 samples.

Results

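Piezo1 and Piezo2, the paralogous mechanosensitive ion channels, were followed through 14 bulk RNA-seq libraries of female mouse hearts. They were 2 of the 42396 genes listed in the deposited count tables, and were chosen by measured values. Piezo2 was selected on its fall in the virus comparison and its difference between the 2 experiments, and Piezo1 was taken as its paralog. The values in the virus comparison and in the difference between experiments are therefore given as a description, without a test for either gene.

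All mice were FS6KD (for the AAV experiment by the design text of the series), which means that Ndufs6, a subunit of respiratory complex I, is knocked down in them, and they model a mitochondrial cardiomyopathy. The knockdown comes from a gene trap allele on a mixed C57BL/6J and 129/Ola background, and the heart is the organ it mainly affects. In the knockout experiment, 4 hearts labelled Atf3+/+FS6KD and 4 labelled Atf3-/-FS6KD were taken at 12 weeks of age, the latter from founders in whose fertilized eggs a large part of the Atf3 coding region had been removed with CRISPR-Cas9. In the AAV experiment, neonatal FS6KD mice received MyoAAV2, a muscle-directed adeno-associated virus, with a short hairpin RNA against Atf3 (3 hearts labelled MyoAAV2-shAtf3) or a control hairpin (3 labelled MyoAAV2-shCtrl), and hearts were taken 12 weeks after injection. No wild-type heart without the Ndufs6 knockdown belongs to these groups. The promoter that drives the hairpin is not given in the sources used here.

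The labels were checked first, and neither experiment showed less Atf3. Atf3, the stress-induced transcription factor targeted in both experiments, was at 11.4 ± 9.42 CPM (counts scaled to a common library total, TMM-normalised, SD, n = 4) in the libraries labelled Atf3+/+FS6KD and 24.9 ± 9.41 CPM (SD, n = 4) in those labelled Atf3-/-FS6KD, a log2 fold change of 1.14 (SE 0.49, edgeR adjusted p = 0.48). Replicate 1 of Atf3+/+FS6KD, at 25.5 CPM, stood apart from the other 3 at 6.39 to 6.89 CPM, and leaving it out gave 1.89 on the log2 scale (SE 0.29, edgeR adjusted p = 0.113). The count covers the whole gene, including whatever part of it the deletion leaves. In the AAV experiment the log2 fold change of Atf3 was 0.41 (SE 0.19, edgeR adjusted p = 0.42). Moreover, the columns of the AAV table are named the other way round from the labels, with Atf3 in the names of the libraries labelled shCtrl. The labels were followed, groups are called by them, and every direction in the AAV experiment would turn if the 2 names were exchanged. Ndufs6 lay between 2.31 and 3.82 CPM in all 14 libraries. Total counts ran from 33914931 to 134920825 in the knockout experiment, where replicates 3 and 4 of both genotypes were deeper (at least 112904389) than replicates 1 and 2 (at most 42409691), and from 30085432 to 40534913 in the AAV experiment. The muscle identity of the tissue was plain, with 7 cardiomyocyte genes such as Myh6 and Tnnt2 summing to between 47977 and 69228 CPM. Of 4 atrial markers, Myl7 and Sln did not pass the filter of 1 CPM in any library, Myl4 was at 1.67 to 2.99 CPM, and Nppa, which stressed ventricles also express, was at 256 to 786 CPM.

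Piezo proteins assemble as trimers in the plasma membrane and open when the membrane is stretched, letting in cations including calcium. Piezo1 is known from endothelium, where it senses shear stress, from red blood cells and from cardiac fibroblasts and myocytes. Piezo2 is known above all from sensory neurons, where it serves touch, proprioception and the baroreceptor reflex. Calcium that enters through these channels is known to act on calcineurin and NFAT, and stretch more widely acts on the YAP and TAZ coactivators.

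The Piezo1 gene spans 69.6 kb of chromosome 8, from 122481698 to 122551329 in GRCm38, and is read from the minus strand. Its longest coding transcript in GENCODE vM21 has 51 exons and 8219 bases. The 250 bases before the Piezo1 start site (RefSeq, GRCm38.p6, chr8:122551330-122551579, minus strand) are shown because Atf3 is a bZIP factor, a family that binds cAMP response elements and AP-1 sites, and these were looked for on both strands. Capitals mark a GC box (GGGCGG), which begins 40 bases before the start, and a TATA box (TATAAA), which begins 24 bases before it.
Piezo1 promoter: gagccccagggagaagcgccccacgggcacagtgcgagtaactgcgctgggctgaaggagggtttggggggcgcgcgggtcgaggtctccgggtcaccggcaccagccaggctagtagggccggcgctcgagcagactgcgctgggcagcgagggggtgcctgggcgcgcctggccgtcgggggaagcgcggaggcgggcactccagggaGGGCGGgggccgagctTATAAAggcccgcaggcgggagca
The cAMP response element TGACGTCA and the AP-1 site TGACTCA had 0 matches in this window. Over the 32851 promoter windows of this length, 1.55% held TGACGTCA, 4.46% held TGACTCA, 32.7% held GGGCGG and 12.4% held TATAAA. These are matches of letters only. No sequence of the Piezo2 promoter was used here.

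Piezo1 was by far the more abundant paralog in these hearts. Averaged over the 14 libraries it stood at 38.8 CPM, above 71.3% of the 15708 genes tested, while Piezo2 stood at 2.78 CPM, above 18.8% of them. Per kilobase of transcript, Piezo1 was at 4.73 CPM per kb and Piezo2 at 0.259 CPM per kb, and within single libraries the level of Piezo1 per kb was between 9.47 and 36 times that of Piezo2. The depth behind the genes differed in the same way. Piezo1 rested on 1054.5 to 5503 counts per library, a counting error of 1.35% to 3.08%, and Piezo2 on 40 to 456 counts, a counting error of 4.68% to 15.8%. These errors cover counting alone.

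The Piezo2 gene, also read from the minus strand, spans 377.0 kb of chromosome 18, from 63010213 to 63387183, with 54 exons and 10724 bases in its longest coding transcript. The paralogs share no stretch as long as a read. The longest identical run between any of their transcripts was 17 bases, and of the 10798 stretches of the length of a read in Piezo1 transcripts, 0 occurred in a Piezo2 transcript.

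Piezo1 had overlapping levels in all 4 groups. The Atf3+/+FS6KD hearts, in replicate order, held 37.4, 32.0, 44.1 and 40.1 CPM of Piezo1 (38.4 ± 5.08, SD, n = 4). The Atf3-/-FS6KD hearts held 38.3, 37.2, 46.8 and 39.2 CPM (40.4 ± 4.39, SD, n = 4). The libraries labelled shCtrl held 39.5, 43.2 and 36.1 CPM (39.6 ± 3.56, SD, n = 3) and those labelled shAtf3 held 33.6, 35.2 and 41.1 CPM (36.6 ± 3.98, SD, n = 3). From the lowest mean to the highest the order was labelled shAtf3, Atf3+/+FS6KD, labelled shCtrl and Atf3-/-FS6KD, and each group overlapped the next.

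The Piezo2 levels, which chose the gene, are given as a description. The Atf3+/+FS6KD hearts held 1.89, 1.21, 2.10 and 1.68 CPM of it (1.72 ± 0.38, SD, n = 4). The Atf3-/-FS6KD hearts held 3.16, 4.56, 3.88 and 2.70 CPM (3.57 ± 0.819, SD, n = 4). The libraries labelled shCtrl held 5.46, 4.28 and 3.20 CPM (4.32 ± 1.13, SD, n = 3), and those labelled shAtf3 held 1.67, 1.58 and 1.51 CPM (1.59 ± 0.081, SD, n = 3). From the lowest mean to the highest the order was labelled shAtf3, Atf3+/+FS6KD, Atf3-/-FS6KD and labelled shCtrl. The groups labelled shAtf3 and Atf3+/+FS6KD overlapped, as did those labelled Atf3-/-FS6KD and shCtrl, while Atf3+/+FS6KD and Atf3-/-FS6KD did not.

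**Figure D1:**
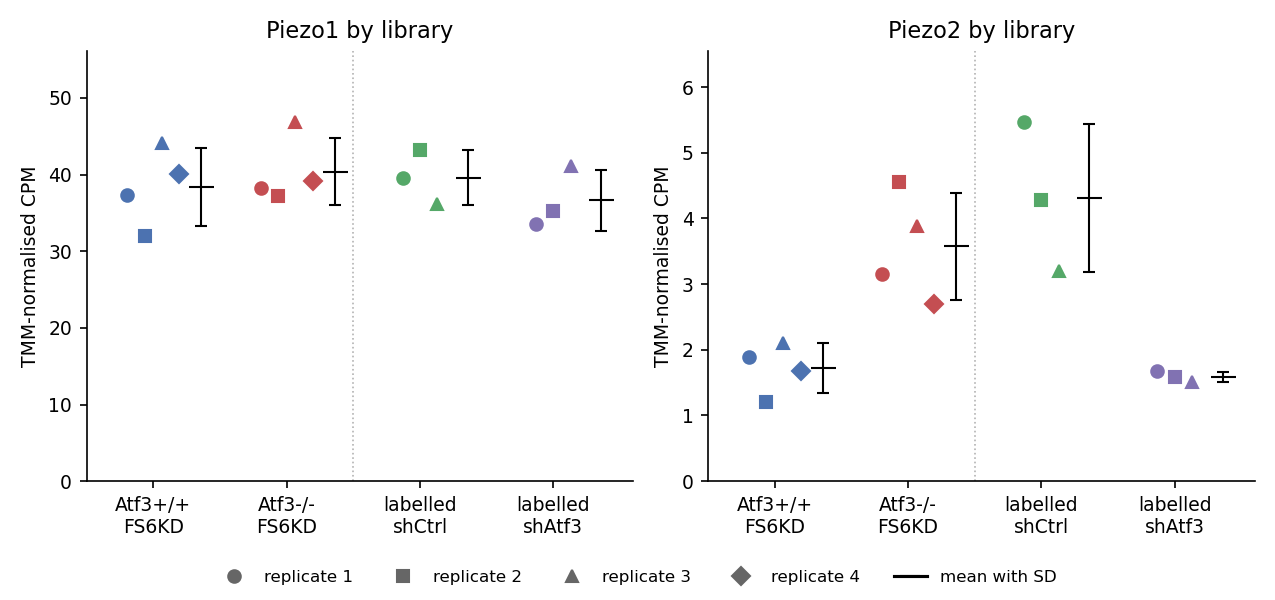
Levels of Piezo1 (left) and Piezo2 (right) in TMM-normalised CPM for each library of the 4 groups, with symbols for the replicate number and black bars for the mean with SD. Piezo1 lies between 32.0 and 46.8 CPM in every group, while Piezo2 is at 1.21 to 2.10 CPM in the libraries labelled Atf3+/+FS6KD and shAtf3 and at 2.70 to 5.46 CPM in the others.

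The spread within groups was measured beside the counting error. For Piezo2 the SD was 22.1%, 22.9% and 26.2% of the mean in the groups labelled Atf3+/+FS6KD, Atf3-/-FS6KD and shCtrl, against mean counting errors of 10%, 6.77% and 7.79%. In the group labelled shAtf3 it was 5.11%, less than the counting error of 14.3%, so the closeness of these 3 libraries is finer than their depth resolves. For Piezo1 the SD was between 8.98% and 13.2% of the mean in all 4 groups.

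The question behind the knockout comparison was what losing Atf3 changes in the FS6KD heart. The log2 fold change of Piezo2 was 1.04 (SE 0.21), a 2.05-fold higher level in the libraries labelled Atf3-/-FS6KD, and its groups did not overlap. Among all 15592 genes tested, 3.03% were higher without overlap in this comparison. The edgeR p of Piezo2 was 0.000856 and its adjusted p was 0.253, which is above the threshold of 0.05. Piezo2 ranked 45 by p among all genes tested and 27 by fold change among the 13454 genes above 1 log2 CPM. In edgeR, 0 of 15592 genes were called in this comparison (0%), 1575 (10.1%) had an unadjusted p below 0.05, and DESeq2 called 208 (1.33%), 107 of them higher (0.686%). Without Atf3+/+FS6KD replicate 1 or without Atf3-/-FS6KD replicate 3, edgeR called 15, without Atf3+/+FS6KD replicate 4 it called 6, and without replicate 2 of either genotype 1. With DESeq2 the adjusted p of Piezo2 was 0.00279 at a log2 fold change of 1.03, and with limma-trend it was 0.27. The exact permutation test of the log2 CPM, two-sided, gave p = 0.0286, the smallest that 4 against 4 libraries allow. The knockout effect is 1 term of the difference by which Piezo2 was chosen, so these p-values are no independent evidence.

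The Piezo2 difference had the same sign in shallower and deeper libraries. In replicates 1 and 2 alone its log2 fold change was 1.31 (SE 0.33) and in replicates 3 and 4 alone it was 0.80 (SE 0.26). Leaving out each library in turn gave 0.90 to 1.16, with edgeR adjusted p-values between 0.265 and 0.51.

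For Piezo1 no difference passed the test in the knockout comparison. Its value on the log2 scale was 0.07 (SE 0.10, edgeR adjusted p = 0.837), and the exact permutation test of log2 CPM gave p = 0.543. The direction of so small a value was not fixed, since it was -0.01 without Atf3-/-FS6KD replicate 3 and 0.00 without Atf3+/+FS6KD replicate 2.

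In the AAV comparison, which asked for the response to the hairpin against Atf3, the level of Piezo2 in the libraries labelled shCtrl was 2.73 times that in the libraries labelled shAtf3. On the log2 scale Piezo2 stood at -1.45 (SE 0.21), and it was number 8 from the lowest fold change among the 13396 genes above 1 log2 CPM. Leaving out each library in turn gave -1.63 to -1.25. All 3 libraries labelled shAtf3 lay below all 3 labelled shCtrl, and 9.35% of the 15225 genes tested were lower without overlap in this comparison. These values chose the gene and are given as a description. With the AAV names exchanged, the fall of Piezo2 and its rank from the lowest would turn into a rise and a rank from the highest.

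The log2 fold change of Piezo1 in the AAV comparison was -0.12 (SE 0.10), with overlapping groups, and -0.21 to -0.05 when single libraries were left out. The difference between the experiments, as the knockout effect minus the AAV effect in a fit of all 14 libraries, was 2.48 (SE 0.32) on the log2 scale for Piezo2 and 0.19 (SE 0.16) for Piezo1. Over all 15708 genes tested, edgeR called 26 (0.166%) for this difference. If the AAV names were exchanged, the Piezo2 effects, 1.04 and -1.45 by the labels, would have the same sign.

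The ratio of the paralogs within a library needs no scaling between libraries. In the Atf3+/+FS6KD hearts, counts of Piezo2 came to 5.04%, 3.79%, 4.76% and 4.18% of those of Piezo1. In the Atf3-/-FS6KD hearts they came to 8.25%, 12.3%, 8.29% and 6.88%. For the label shCtrl the shares were 13.8%, 9.91% and 8.84%, and for the label shAtf3 4.93%, 4.49% and 3.63%. These shares rest on the same Piezo2 counts that chose the gene, and the groups overlapped in the same way.

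On the log2 scale the mean ratio was -4.50 ± 0.18 (SD, n = 4) in Atf3+/+FS6KD and -3.52 ± 0.35 (SD, n = 4) in Atf3-/-FS6KD, a difference of 0.98 (exact permutation test, two-sided, p = 0.0286, again the smallest possible and again not independent of the choice). It was 1.21 in replicates 1 and 2 alone and 0.76 in replicates 3 and 4 alone. In the AAV experiment its mean was -3.23 ± 0.33 (SD, n = 3) for the label shCtrl and -4.54 ± 0.23 (SD, n = 3) for the label shAtf3, a difference of -1.30. In all, 3 permutation tests were made, 1 for each paralog and 1 for their ratio.

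**Figure D2:**
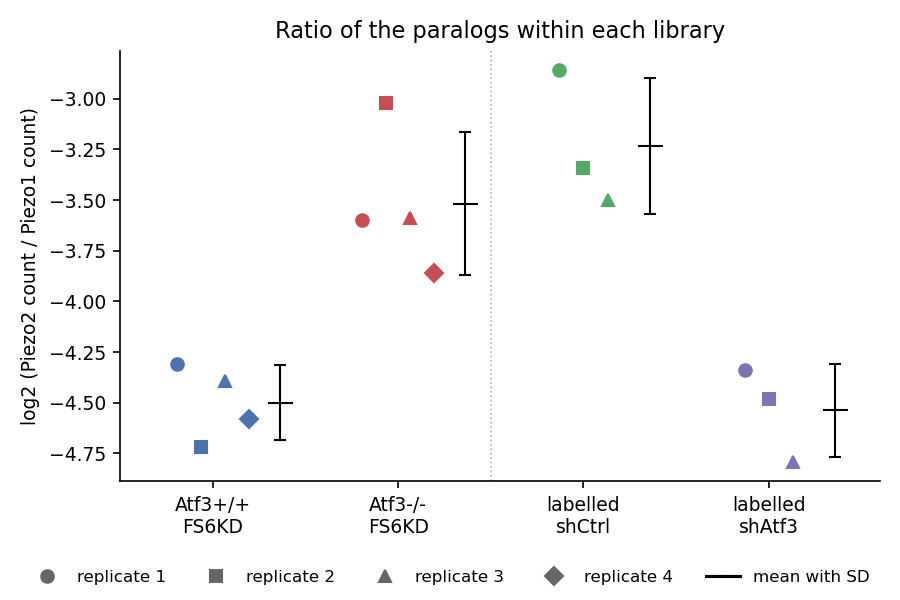
The log2 ratio of Piezo2 to Piezo1 counts in each library, by group, with black bars for the mean with SD. Group means are -4.50, -3.52, -3.23 and -4.54 from left to right, and no library of the groups labelled Atf3+/+FS6KD or shAtf3 reaches those of the other groups.

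Genes beside the channels on the chromosome were examined, since whether the counting used strand is not stated. Ctu2, which acts in tRNA modification, overlaps the Piezo1 gene by 1395 bases and was at 8.86 to 12.3 CPM. The knockout comparison gave it a log2 fold change of 0.14 (SE 0.08, edgeR adjusted p = 0.594) and the AAV comparison -0.12 (SE 0.10, edgeR adjusted p = 0.65), and reads from the shared stretch cannot be told apart. The long noncoding RNA Gm36651 lies inside the Piezo2 gene and reached at most 0.0751 CPM. No difference of the coding neighbours passed the test. Napg, which encodes a vesicle fusion protein and is the nearest gene to Piezo2 at lower coordinates, had a log2 fold change of 0.00 (SE 0.05, edgeR adjusted p = 0.985) and 0.08 (SE 0.07, edgeR adjusted p = 0.706) in the 2 comparisons. Rnf166, a ubiquitin ligase next to Ctu2, had -0.19 (SE 0.10, edgeR adjusted p = 0.55) and 0.14 (SE 0.10, edgeR adjusted p = 0.621). Of the other neighbours, Gm34847 reached at most 0.00854 CPM, and Gm26497 and Gm26972 were at 0 in all libraries.

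Of 18 other mechanosensitive channels listed, 15 were tested in the knockout comparison and 14 in the AAV comparison, and edgeR called 0 in either. With 0% and 0.539% of all genes called, a count of 0 is near the background for a list of this size, here and for the lists that follow. At an unadjusted p below 0.05 there were 2 and 4 of them, where all genes gave 10.1% in the knockout comparison and 12.7% (1933 genes) in the AAV comparison. DESeq2 called 1 (Trpv2, higher) and 0, where it called 1.33% and 2.02% of all genes in the 2 comparisons. Their median log2 fold changes were -0.05 and -0.03, where the median of all genes was 0.00 in both. Trpv2, a cation channel of the intercalated disc, was the 1 tested channel of 15 higher without overlap in the libraries labelled Atf3-/-FS6KD, at 5.71 to 5.87 CPM against 4.19 to 4.76 CPM (log2 fold change 0.37, SE 0.08, edgeR adjusted p = 0.277), where 3.03% of all genes were. In the AAV comparison it was at 4.92 to 5 CPM against 4.44 to 5.46 CPM. There 2 of 14 channels were lower without overlap, against 9.35% of all genes. The potassium channel Kcnk2, named after its value was seen, was at 1.42 to 2.03 CPM for the label shAtf3 and 2.61 to 3.03 CPM for the label shCtrl (log2 fold change -0.68, SE 0.17, edgeR adjusted p = 0.157). Trpv4, an osmotically gated channel, had log2 fold changes of 0.28 (SE 0.15) and -0.18 (SE 0.14). For Trpc1, a stretch-linked channel, they were -0.05 (SE 0.12) and 0.10 (SE 0.09).

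Proteins known to bind or tune the channels were listed too. Mdfic, an auxiliary subunit of Piezo channels, had log2 fold changes of 0.26 (SE 0.10, edgeR adjusted p = 0.438) and -0.25 (SE 0.10, edgeR adjusted p = 0.335), and its paralog Mdfi had 0.30 (SE 0.24) and -0.51 (SE 0.25). Tmem150c, which slows the inactivation of Piezo currents, varied from 7.86 to 24.4 CPM within Atf3+/+FS6KD alone. Stoml3, which sensitises the channels in sensory neurons, was at most 0.091 CPM. EdgeR and DESeq2 called 0 of the 7 tested partners in either comparison. At an unadjusted edgeR p below 0.05 there were 2 and 1, against 10.1% and 12.7% of all genes.

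In edgeR, genes downstream of calcium entry and of shear were near the background too. Of 11 genes of calcineurin and NFAT signalling, edgeR and DESeq2 called 0 in both comparisons (2 and 1 at an unadjusted edgeR p below 0.05), with medians of -0.03 and 0.02. Nfatc4, a calcineurin-regulated transcription factor, was at 4.85 to 5.62 CPM in Atf3+/+FS6KD and 5.56 to 7.36 CPM in Atf3-/-FS6KD (log2 fold change 0.32, SE 0.10, edgeR adjusted p = 0.392). Of 8 genes of the endothelial shear response, edgeR called 0 in both comparisons. At an unadjusted edgeR p below 0.05 there were 0 and 1, where all genes gave 10.1% and 12.7%. DESeq2 called 0 and 1 (Panx1, lower, named after its value was seen), against 1.33% and 2.02% of all genes. Klf2 and Klf4, shear-induced factors of endothelium, had log2 fold changes between -0.15 and 0.09 in both comparisons, and Nos3, the endothelial nitric oxide synthase, 0.19 (SE 0.11) and -0.04 (SE 0.09).

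Among 12 regulators and targets of YAP and TAZ, edgeR called 1 lower in the AAV comparison, where 0.453% of all genes were called lower, and 0 in the knockout comparison. At an unadjusted p below 0.05 there were 3, all lower, and 1, against 12.7% and 10.1% of all genes, and DESeq2 called 2 lower (Ccn2 and Ankrd1, the latter named after its value was seen), against 1.55% of all genes, and 0. Ccn2, the connective tissue growth factor, fell from 123 to 180 CPM in the libraries labelled shCtrl to 90.6 to 97.8 CPM in those labelled shAtf3, a log2 fold change of -0.71 (SE 0.12, edgeR adjusted p = 0.0463). The call was lost (edgeR adjusted p up to 0.229) when any library other than the one labelled shCtrl replicate 3 was left out, with log2 fold changes of -0.85 to -0.58 over all 6. With the replicate number as a block in the fit the call of Ccn2 was lost too. The transcripts of Yap1 and Wwtr1 themselves had log2 fold changes between -0.09 and 0.04 in both comparisons.

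The list of extracellular matrix and stretch-response genes held the most calls of the lists examined. The list was chosen with earlier results of these data known, and its counts are given beside those of all genes as a description. In the AAV comparison edgeR called 10 of its 20 tested genes lower and 0 higher, where 0.453% of all genes were called lower and 0.0854% higher, and the median log2 fold change was -0.95 against 0.00 over all genes. The 10 were the collagen genes Col1a1, Col1a2, Col3a1, Col5a1 and Col8a2, fibronectin (Fn1), periostin (Postn), the cartilage oligomeric matrix protein (Comp), fibromodulin (Fmod) and the microfibril-associated Ltbp2. The count rested on few libraries. It was 1 without the library labelled shCtrl replicate 2, 16 without shCtrl replicate 3, and 0 without any 1 of those labelled shAtf3, while the median stayed between -1.10 and -0.71. With the replicate number as a block in the fit the count was 5.

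Comp had the greatest fall of these, from 41.2 to 65.4 CPM in the libraries labelled shCtrl to 16.2 to 17.6 CPM in those labelled shAtf3 (log2 fold change -1.72, SE 0.15, edgeR adjusted p = 0.01). Col3a1, a fibrillar collagen, went from 480 to 747 CPM to 258 to 326 CPM (-1.05, SE 0.16, edgeR adjusted p = 0.0328), and Postn, a matricellular protein of activated fibroblasts, from 321 to 550 CPM to 188 to 203 CPM (-1.14, SE 0.16, edgeR adjusted p = 0.0299). The calls of Comp were lost without any 1 library labelled shAtf3 (edgeR adjusted p up to 0.108), and those of Col3a1 and Postn also without shCtrl replicate 2 (up to 0.178), while all their log2 fold changes stayed negative. With the replicate number as a block the call of Col3a1 was lost (edgeR adjusted p = 0.08), and those of Comp and Postn were kept.

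In the knockout comparison all 20 tested genes of that list had positive log2 fold changes, with a median of 0.57, and edgeR called 0 of them. An unadjusted p below 0.05 was found for 10, against 10.1% of all genes, and DESeq2 called 5 higher, against 0.686% of all genes. Without overlap, 5 were higher in the libraries labelled Atf3-/-FS6KD, against 3.03% of all genes. Col3a1 was at 278 to 365 CPM in Atf3+/+FS6KD and 446 to 649 CPM in Atf3-/-FS6KD (0.71, SE 0.13, edgeR adjusted p = 0.248), and Fn1 at 65.3 to 85.7 and 93.7 to 131 CPM (0.61, SE 0.12, edgeR adjusted p = 0.253). Tnc, which encodes tenascin C, had a log2 fold change of 1.48 (SE 0.46, edgeR adjusted p = 0.389) in the knockout comparison and -1.73 (SE 0.48, edgeR adjusted p = 0.193) in the AAV comparison. Comp, with the greatest fall among the 10 genes called in the AAV comparison, was at 8.86 to 32.3 CPM in Atf3+/+FS6KD and 7.99 to 32.9 CPM in Atf3-/-FS6KD, and these ranges overlap nearly in full.

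**Figure D3:**
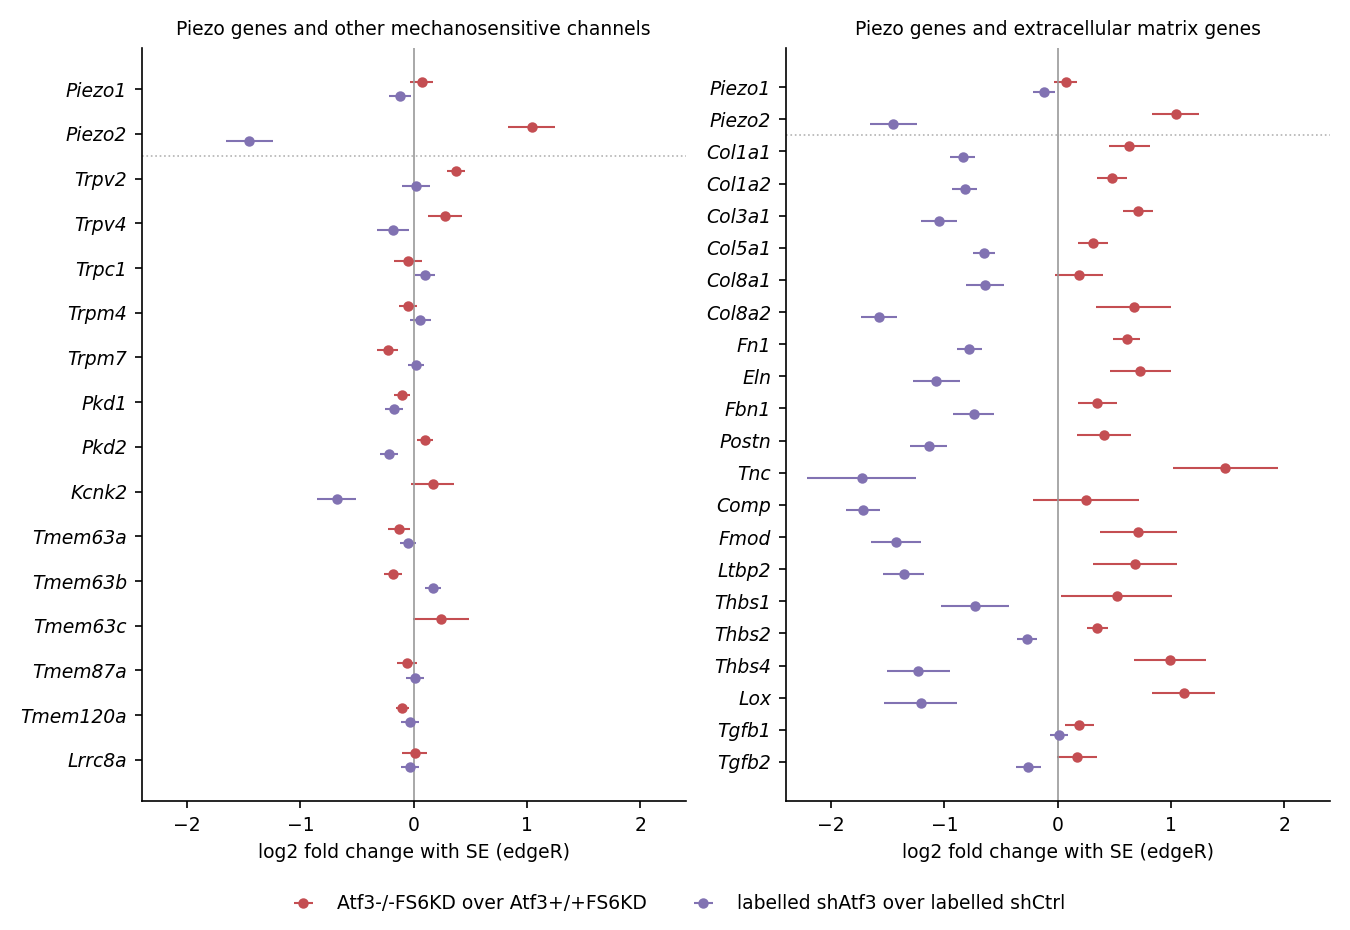
The log2 fold changes with SE (edgeR) of Piezo1 and Piezo2, above the dotted line, and of the other mechanosensitive channels (left) and the extracellular matrix genes (right), red for Atf3-/-FS6KD over Atf3+/+FS6KD and violet for labelled shAtf3 over labelled shCtrl (1 tested channel is not drawn, and medians are over all tested). Piezo2 is at 1.04 and -1.45, values that bear on its choice, the channels have medians of -0.05 and -0.03, and the matrix genes have medians of 0.57 and -0.95.

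Heart tissue was sequenced in bulk, so a change in the number of cells of a type and a change in RNA per cell cannot be told apart. All 9 fibroblast markers had positive log2 fold changes in the knockout comparison (median 0.33, 0 called by edgeR, 6 at an unadjusted p below 0.05, 2 called by DESeq2) and all 9 had negative ones in the AAV comparison (median -0.39, all 9 at an unadjusted p below 0.05, with Col1a1 and Col1a2 called lower by edgeR and 7 by DESeq2). Over all genes, 10.1% and 12.7% had an unadjusted p below 0.05, 0% were called by edgeR in the knockout comparison and 0.453% were called lower in the AAV comparison, while DESeq2 called 0.686% higher and 1.55% lower in the same order. The summed level of the 9 was 2312 to 3412 CPM in Atf3+/+FS6KD, 2967 to 3481 CPM in Atf3-/-FS6KD, 3151 to 3980 CPM in the libraries labelled shCtrl and 2613 to 2736 CPM in those labelled shAtf3. Pdgfra, the receptor that marks fibroblasts, had log2 fold changes of 0.19 (SE 0.06, edgeR adjusted p = 0.392) and -0.38 (SE 0.09, edgeR adjusted p = 0.133). Col1a1 and Col1a2 were also counted on the matrix list, and edgeR called no other fibroblast marker. The part of fibroblast content in the Piezo2 values was not tested.

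The markers of valve and tendon cells, another matrix-rich population, had medians of 0.32 and -0.47 over 9 tested genes. EdgeR called Comp and Fmod, both also counted on the matrix list, lower in the AAV comparison, against 0.453% of all genes, and 0 in the knockout comparison. At an unadjusted p below 0.05 there were 4 and 1, against 12.7% and 10.1% of all genes. DESeq2 called 3 lower, against 1.55% of all genes, and 0, in the same order. Their sums were 65.2 to 134, 82.4 to 151, 171 to 303 and 104 to 130 CPM in the groups labelled Atf3+/+FS6KD, Atf3-/-FS6KD, shCtrl and shAtf3. Chad and Hapln1 did not pass the filter. Of the listed tendon genes, the factor Scx was at 2.79 to 8.66 CPM over all libraries (log2 fold changes 0.32, SE 0.25, and -0.32, SE 0.15), and Tnmd, which encodes tenomodulin, was at 0.0607 to 0.474, 0.433 to 1.48, 0.814 to 1.52 and 0.388 to 0.583 CPM in the same order of groups. Their part in the Piezo2 values was not tested.

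Because Piezo2 is best known from sensory neurons, neuronal markers were read beside it. Of 13, 4 were tested in the knockout comparison and 3 in the AAV comparison. Of the tested ones, Dbh was at 1.07 to 6.26 CPM and Scn10a at 0.477 to 2.22 CPM over all libraries. Chat was at 0 in all 14 libraries, and Th, Prph and the neurofilament genes did not pass the filter. The sums were 12.9 to 20.4, 11.3 to 16.5, 15.8 to 17.6 and 9.63 to 11.3 CPM in the same order of groups. None was called in the knockout comparison (median log2 fold change -0.39, 0 called by edgeR or DESeq2 and 0 at an unadjusted p below 0.05), while in the AAV comparison Uchl1, a ubiquitin hydrolase abundant in neurons, was called lower, as were 0.453% of all genes (-0.82, SE 0.12, edgeR adjusted p = 0.0299), a call lost without shCtrl replicate 2 or any 1 library labelled shAtf3 (edgeR adjusted p up to 0.16). The Uchl1 call was also lost with the replicate number as a block. The part of neuronal markers in the Piezo2 values was not tested.

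Cardiomyocyte markers had medians of -0.15 and 0.13. EdgeR called 0 of the 7 in either comparison (2 and 1 at an unadjusted p below 0.05), and DESeq2 called 2 and 0, against 1.33% and 2.02% of all genes. The 2 in the knockout comparison had opposite signs, with log2 fold changes of -0.36 (SE 0.08) for Tnnt2, a troponin gene, and 0.47 (SE 0.12) for Actc1, cardiac actin. Of 10 further marker lists (atrial, endothelial, endocardial, lymphatic, mural, macrophage, erythroid, adipocyte, Schwann and epicardial), 45 genes were tested in the knockout comparison and 46 in the AAV comparison. EdgeR called 0 in either, with 10 and 10 at an unadjusted p below 0.05, and DESeq2 called 1 and 0. Over all genes the shares at an unadjusted p below 0.05 were 10.1% and 12.7%. Of the macrophage markers, 6 of 6 were positive in the knockout comparison (median 0.30, 3 at an unadjusted p below 0.05) and 6 of 6 negative in the AAV comparison (median -0.22, 4 at an unadjusted p below 0.05). Their sums were 125 to 157 CPM in Atf3+/+FS6KD, 139 to 194 CPM in Atf3-/-FS6KD, 182 to 205 CPM for the label shCtrl and 167 to 172 CPM for the label shAtf3, and their part in the Piezo2 values was not tested. Endothelial markers, which stand for a main site of Piezo1, summed to between 1214 and 1496 CPM in all libraries, with medians of 0.05 in both comparisons.

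Within groups, where the condition is held constant, the paralogs were weakly correlated. After the group mean was taken from the log2 CPM of each library, Pearson's r between Piezo1 and Piezo2 over the 14 libraries was 0.45 and Spearman's rho was 0.41. Many genes were more like each of them than its paralog was, which ranked 2015 for Piezo1 and 2277 for Piezo2 among 13365 genes. The libraries share depth and tissue sampling, and the correlations are given as a description.

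The 5 genes most like Piezo2 in this sense were Col12a1 (r = 0.96), which encodes a fibril-associated collagen, Fkbp14 (0.95), a prolyl isomerase of the endoplasmic reticulum, the adaptor gene Gab2 (0.94), Cyp1b1 (0.94), a cytochrome P450, and the homeobox gene Meox1 (0.93). They are the extremes of 13365 genes over 14 points. The points were centred on 4 group means, so fewer than 14 of them vary freely. The r of Piezo2 with Myh6, the main cardiac myosin, was -0.85. It was 0.78 with Comp, 0.59 with Col1a1, 0.38 with Pdgfra and -0.28 with the endothelial gene Pecam1. Centred on the experiment instead of the group, so that the difference between groups enters, the r with Pdgfra was 0.85, with Col1a1 0.90 and with Myh6 -0.66. The values centred on the experiment include the group differences by which Piezo2 was chosen, so they are no independent evidence of likeness.

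The 5 genes most like Piezo1 were Twsg1 (0.92), a secreted regulator of BMP signalling, Pmepa1 (0.92), an inhibitor of TGF-beta signalling, the Polycomb gene Pcgf3 (0.92), Zdhhc5 (0.91), a palmitoyltransferase, and Pde12 (0.89), a phosphodiesterase. The r of Piezo1 was 0.64 with Comp, 0.83 with Col1a1, 0.66 with Pdgfra, -0.12 with Pecam1 and -0.46 with Myh6. The names depended on the measure. By Spearman's rho 2 of the 5 genes for Piezo1 and 1 of the 5 for Piezo2 were again among the 5 most like, and with levels centred on the experiment rather than the group, 1 and 0.

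**Figure D4:**
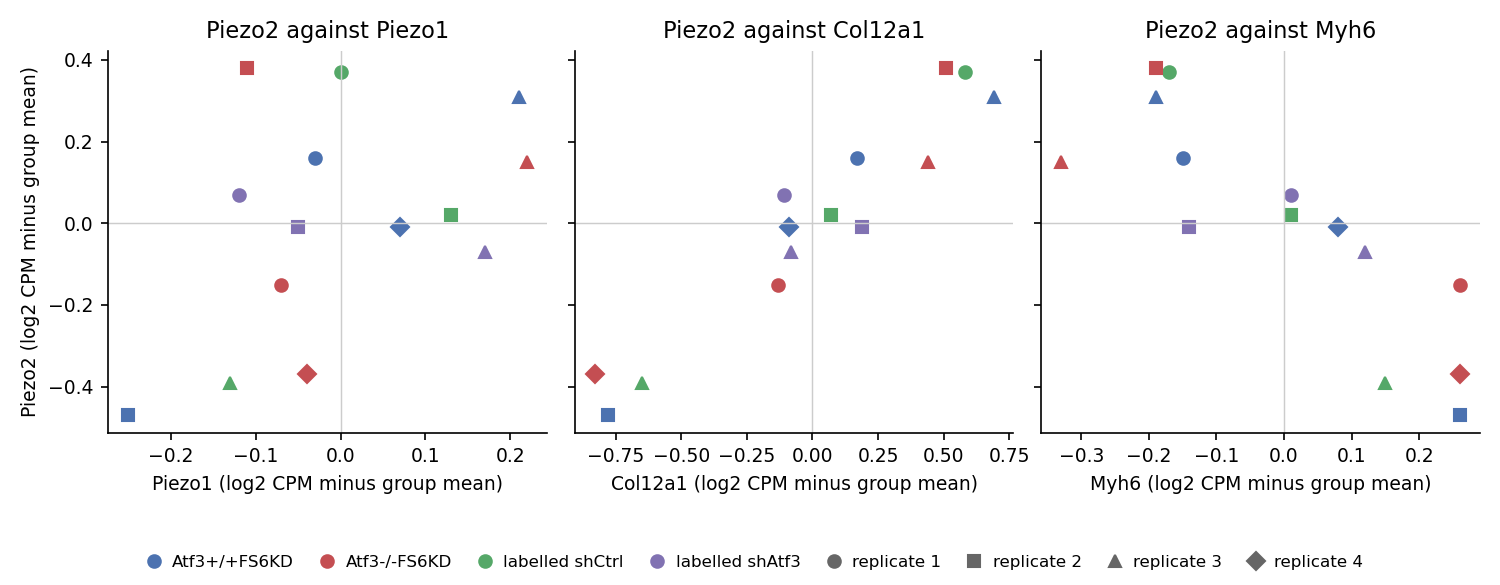
Deviations from the group mean (log2 CPM) of Piezo2 on the vertical axis against Piezo1, Col12a1 and Myh6 on the horizontal axes, 1 point for each of the 14 libraries, coloured by group with symbols for the replicate number. Piezo2 follows Col12a1 (r = 0.96), has an r of -0.85 with Myh6 and is loosely related to Piezo1 (r = 0.45).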

How the data were processed

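RNA of 14 hearts had been made into stranded mRNA libraries. Single-end reads are stated by the authors for the knockout experiment. GRCm38 patch 6 and featureCounts 2.0.0 are named in the submitters' processing notes, and the aligner is not given in the sources used here. Each deposited value is an estimated count of a gene in 1 heart, neither normalised nor pooled. Between 19.3% and 24.4% of them per heart had a fractional part, so all were rounded to whole numbers for every test. The design had assumed whole counts, and the same tests were kept. Of the 42396 listed genes, 2379 were read as copies on alternate loci, 0 of them of Piezo1 or Piezo2, and 0 sample columns were left out.

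Testing used edgeR 4.0.16 in R 4.3.3 (TMM, quasi-likelihood, no covariate) on genes that exceeded 1 CPM in some library of the comparison, with a threshold of 0.05 on p-values adjusted by Benjamini-Hochberg over every gene tested, after a check on simulated data. CPM are TMM-normalised over the 14 libraries jointly, and log2 CPM used a prior count of 2. CPM per kb used the longest coding transcript of GENCODE vM21, which may differ from the annotation that was counted. DESeq2 1.42.0, limma-trend (limma 3.58.1), other scalings and filters, a replicate block and left-out libraries were alternatives. The study calls the knockout libraries biological replicates. For the AAV libraries the labels give replicate numbers only, so p-values there measure the spread between these samples.

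The channels and all lists were chosen with earlier results of these data known. Genes were named by a rule: both channels, Atf3 and Ndufs6, listed genes past the threshold, up to 4 further members of a list in written order, chromosomal neighbours, and the 5 genes most like each channel. Markers named for their level alone were chosen after their values were seen, as were the listed genes in the correlations. Some listed genes are counted but not reported here by name.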

Additional observations from a re-analysis of the deposited data

Results flagged for a closer look

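Over 65 quantities named in the text, the 130 groups of 4 hearts were searched for a library far from the others (Dixon's criterion), which chance flags in about 1 of 20 groups, and 8 were found. Neither Piezo1, Piezo2 nor their ratio was among them. Atf3 in Atf3+/+FS6KD replicate 1 was at 25.5 CPM, where the others held 6.39 to 6.89 CPM. In Atf3-/-FS6KD, Col1a1 was at 233 CPM in replicate 3 (others 145 to 153), Ccn2 at 210 CPM in replicate 2 (others 104 to 116), Trpv2 at 5.87 CPM in replicate 1 (others 5.71 to 5.74) and Ctu2 at 12.3 CPM in replicate 3 (others 11.2 to 11.3). In Atf3+/+FS6KD, Col1a2 was at 193 CPM in replicate 3 (others 145 to 152), Pdgfra at 60.7 CPM in replicate 3 (others 52.8 to 54) and Napg at 26.8 CPM in replicate 2 (others 29 to 29.4).

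Of 64 genes, 5 had effects that lay apart in the 2 experiments, 4 by the interaction in edgeR and Piezo2 by groups without overlap. Over all genes edgeR called 26 of 15708 (0.166%) for the difference. The 64 include every listed gene called in the AAV comparison, which is 1 term of this difference. Their count is therefore partly set by that choice and is given as a description. For Piezo2 all libraries labelled Atf3-/-FS6KD lay above all those labelled Atf3+/+FS6KD, and all labelled shAtf3 lay below all labelled shCtrl. The difference was 2.48 on the log2 scale, and it was not tested here because it chose the gene. For the other 4, all matrix genes, the interaction in edgeR passed the threshold, with a difference of 1.47 for Col1a1 (adjusted p = 0.0348), 1.30 for Col1a2 (adjusted p = 0.0199), 1.76 for Col3a1 (adjusted p = 0.014) and 1.39 for Fn1 (adjusted p = 0.0144). Without the library labelled shAtf3 replicate 2 the interaction was called for 0 genes, and all 5 differences rest on the AAV labels. If the 2 AAV names were exchanged, both effects of each of these genes would have the same sign.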

How the results depend on the processing

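Over all alternatives the log2 fold change of Piezo2 kept its sign, at 0.80 to 1.31 in the knockout comparison and -1.63 to -1.25 in the AAV comparison, as did the difference in its log2 ratio to Piezo1, which without single libraries was 0.82 to 1.10 and -1.44 to -1.12. Without single libraries the difference between experiments was 2.27 to 2.65 for Piezo2 and 0.11 to 0.28 for Piezo1, and Piezo1 in the AAV comparison was -0.21 to -0.05. Piezo2 in the knockout comparison passed the threshold with DESeq2 (1.03, adjusted p = 0.00279) and with no other alternative (adjusted p up to 0.813), and the cause was not tested. The knockout effect is 1 term of the difference that chose Piezo2, so this pass is no independent evidence. Piezo1 in the knockout comparison was -0.01 to 0.14 without single libraries, reaching 0.00 without Atf3+/+FS6KD replicate 2 and -0.01 without Atf3-/-FS6KD replicate 3. The 10 matrix genes called lower in the AAV comparison became 16 with no filter on low counts and 0 to 16 without single libraries. Of 333 values under alternatives other than a left-out library, 299 stayed close to the main value, as did 145 of 226 values with a library left out. For tested effects, close meant the same direction and side of the threshold. For other effects and for sums it meant a move smaller than the spread. Counts of calls, list medians and the lists of most like genes were held to fixed limits of their own.

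Counts over all genes moved more. In the knockout comparison the 0 genes called by edgeR became 208 with DESeq2, 2 with no filter, 8 in replicates 3 and 4 alone and 0 to 15 without single libraries. In the AAV comparison the 82 became 308 with DESeq2, 304 with no filter and 1 to 285 without single libraries (the lowest without shAtf3 replicate 2, the highest without shCtrl replicate 3). For the difference between experiments the 26 became 669 with DESeq2, 48 with limma-trend, 205 with library size alone, 61 with no filter, 43 with copies merged, 71 and 63 with the shallower or deeper knockout replicates alone, and 0 to 168 without single libraries.

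The replicate numbers were not taken to pair the samples. Deviations of same-numbered samples correlated at 0.19, 0.03, 0.01 and 0.16 in the knockout experiment and at -0.08, 0.29 and 0.09 in the AAV experiment, and not every sample correlated best with its own number. With the replicate block, Piezo2 was at 1.02 (adjusted p = 0.268), -1.44 and 2.44 for knockout, AAV and difference, and Piezo1 at 0.08, -0.12 and 0.20. The log2 ratio differed by 0.98 and -1.30. The matrix genes called lower became 5, and the genes called became 0, 20 and 56. The calls of Col1a1, Col1a2, Col3a1, Col5a1, Fn1, Ccn2 and Uchl1 were lost with the block (adjusted p 0.0612 to 0.0864).

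The depth limits Piezo2 most in Atf3+/+FS6KD replicate 2, with 40 counts (counting error 15.8%), and in the libraries labelled shAtf3, with 43.5 to 55.5 counts each.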
